A study of Mus musculus with 16 samples.

Results

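The genes described here are 32 that the liver transcribes for blood plasma: factors of the clotting cascade and of its contact system, fibrinogen and factor XIII, the anticoagulant proteins, the proteins of fibrinolysis, and abundant carriers such as albumin. They were chosen by name from a list of such genes, with earlier results of these data known. Their counts beside the shares of all genes are therefore a description. All 32 were found among the 13006 genes of the deposited table, and all 32 passed the filter on low counts, which left 12918 genes for testing.

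Hepatocytes make and secrete nearly all of these proteins, so their messenger RNA in the liver is a measure of synthetic capacity. In clotting, factor VII (F7) with tissue factor, or the contact factors XII (F12) and XI (F11), start a chain of serine proteases that activates factor X (F10), then prothrombin (F2), which cuts fibrinogen to fibrin. Antithrombin (Serpinc1), heparin cofactor II (Serpind1) and protein C (Proc) restrain thrombin and its cofactors, and plasminogen (Plg) dissolves the clot. Estrogens are known to shift plasma clotting proteins, and cholestasis impairs vitamin K uptake, on which factors II, VII, IX and X and proteins C and S depend for their activity.

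Liver poly(A) RNA was sequenced from mice with the genotype Humanized PXR-CAR-CYP3A4/3A7, in which PXR and CAR, receptors for foreign chemicals, and CYP3A enzymes are the human forms in every group. CV animals received propylene glycol, the vehicle. EV animals received ethinylestradiol (EE), an estrogen that induces cholestasis, subcutaneously at 10 mg/kg for 7 days. CM animals received MI763F, a CAR ligand named by its code, by gavage on 6 days starting on day 2, each time 2.5 mg/kg, without EE, and EM animals received both. Each of the 4 groups has 4 libraries. The labels used here give neither sex nor age, do not tie a library to its own animal, and do not say whether CV and EV animals were given the oral carrier of MI763F, so p-values measure the spread between these libraries. The totals lay between 14115384 and 21473227 estimated counts per library. Levels are given as CPM, counts scaled to 1 fixed library total after TMM normalisation, and changes as log2 fold changes with standard errors (SE) from edgeR's quasi-likelihood test, whose p-values were adjusted with the Benjamini-Hochberg method over all genes tested. A gene is called changed at an adjusted p under 0.05.

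EE lowered most of this group of genes. In EV against CV 24 of the 32 genes fell and 1, F11, rose, while 24.9% of all genes tested fell and 25.5% rose. The median change of the 32 was -1.31 on the log2 scale against 0.0041 for all genes, and 22 of the 32 were lower by at least 1 log2 unit. The smallest of those falls, Serpinf2 (-1.04), had 9.57% of all genes tested below it. These values are with TMM factors, and the scaling moved them, as given below. In EM against CM, a comparison that shares no library with the first, 24 genes fell and 1 rose (background 18.6% lower and 19.4% higher), and all 25 were called in the same direction in EV against CV. The genes not called in either were Klkb1, Fga, Fgb, Fgg, Serpina10, Pros1 and Cpb2. With MI763F alone 0 of the 32 passed the test, and 0.0929% of all genes tested did. With EE present it raised 7 (1.51% of all genes tested rose), and that count depended on single libraries, as given with its values. The interaction, which compares the effect of MI763F with and without EE, called 0 of the 32 in edgeR's test.

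**Figure D1:**
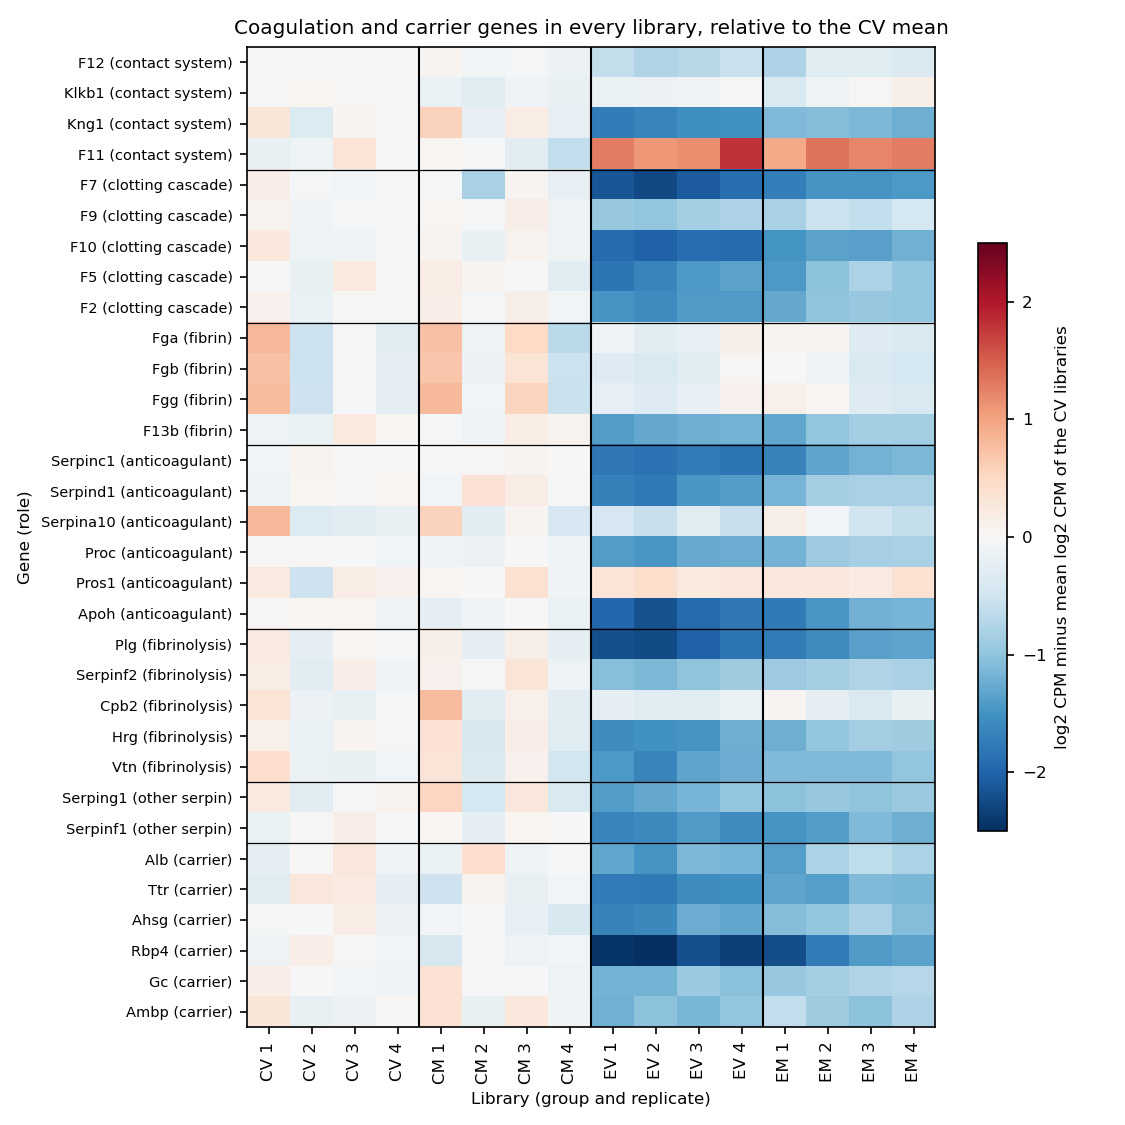
Each row is 1 of the 32 genes, grouped by role, and each column 1 of the 16 libraries; color gives log2 CPM minus the mean of the CV libraries. The EV and EM columns are blue for most genes, F11 is red in all 8 EE libraries, and the 3 fibrinogen rows are darkest red in CV 1, CM 1 and CM 3.

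Together the 32 genes took 10.3% to 12.1% of all estimated counts in the CV libraries and 10.2% to 12.5% in CM. In EV they took 6.02% to 7.20%, and in EM 6.62% to 8.50%. These shares need no scaling factor, and every EE library lay below every library without EE. Albumin alone took 4.61% to 6.50% of the counts in CV and 2.78% to 3.40% in EV. EM replicate 1, at 6.62% for the 32 genes, lay inside the EV range, and the other 3 EM libraries lay above it.

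CV replicates 1 and 2 lay apart from the other libraries without EE on the second principal component, with CM replicate 2 at its other end. Without those CV libraries the counts in EV against CV stayed at 24 lower and 1 higher. The scaling moved every change of the 32 genes in EV against CV, and the calls of some of the smaller ones. The TMM factors were 0.833 to 0.910 in CV and 1.17 to 1.23 in EV. With library totals in their place the median of all genes in EV against CV moved to 0.49. The median of the 32 genes moved from -1.31 to -0.83, and Rbp4, the largest fall, from -2.40 to -1.91. Then 23 of the 32 genes fell and 3 rose, while 10.3% of all genes tested fell and 54.6% rose. Levels given below as a percentage of CV are those with TMM factors. The fall of F12 was then not called (-0.16, adjusted p = 0.156), and Klkb1 (0.37) and Pros1 (0.78) were called higher. The other 23 falls and the rise of F11 were called under both scalings.

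Markers of other cells moved in the same libraries. Macrophage markers summed to 244 to 491 CPM in CV and 1371 to 1687 in EV, and all 7 rose, among them Csf1r (2.74) and Clec4f (1.93). Sinusoidal endothelial markers summed to 99.6 to 216 and 254 to 271 CPM, with 5 of 7 higher. Stellate cell and fibroblast markers summed to 174 to 317 and 184 to 205, with 3 of 8 higher and 1 lower. Of 6 hepatocyte markers 5 fell and 1 rose, from sums of 4818 to 5896 to 3735 to 4202 CPM, with Hnf4a at -0.48. With library totals 3 hepatocyte markers fell and 2 rose, and Hnf4a was at 0.009. Of lymphocyte and neutrophil markers 5 of 6 rose, of erythroid markers 5 of 5, of cholangiocyte markers 2 of 4 and of platelet markers 1 of 3, and none of these fell. The shares over all genes tested were 25.5% higher and 24.9% lower, and with library totals 54.6% higher and 10.3% lower. No marker measured in these lists was at 0 in every library. In tissue RNA, fewer hepatocytes and less RNA per hepatocyte cannot be told apart, and the part of these markers in the falls was not tested.

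Among the 4 genes of the contact system, which can start clotting on surfaces and releases bradykinin, EE changed 3, and in both directions. Of all genes tested 24.9% fell and 25.5% rose. Factor XI, the protease that activates factor IX, was the sole gene of the 32 that rose. F11 lay at 27.6, 29.0, 39.5 and 30.1 CPM in the CV libraries and at 32.2, 30.3, 25.8 and 20.3 in CM. With EE it lay at 76.0, 66.8, 70.6 and 110.1 CPM in EV and at 60.1, 80.6, 73.5 and 76.0 in EM. Every EE library was above every library without EE, and EV replicate 4 was the highest. The log2 fold change was 1.36 ± 0.18 SE, adjusted p = 1.6e-05, in EV against CV and 1.42 ± 0.18 SE, adjusted p = 2.43e-05, in EM against CM. Klkb1, the gene of plasma prekallikrein, lies directly beside F11 in the gene order of the mouse genome. Its values were 84.6, 90.7, 89.8 and 85.4 CPM in CV, 77.8, 71.0, 82.1 and 76.3 in CM, 78.3, 78.7, 81.8 and 85.0 in EV and 67.1, 79.6, 88.9 and 97.4 in EM, and it did not pass the test in EV against CV (-0.11 ± 0.093 SE, adjusted p = 0.328). The ranges of CV and EV overlapped for Klkb1, and the spread in EM covered both.

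The promoters of these neighbours are shown because the genes lie side by side and, with TMM factors, 1 was called with EE while the other was not. With library totals Klkb1 was called higher as well (0.37 in EV against CV). Both windows come from RefSeq (GRCm38.p6, an earlier build than the GRCm39 named for the counts) and run from 250 bases before to 50 bases after the gene start, 5′ to 3′ along the gene: chr8:45261982-45262281 on the minus strand for F11 and chr8:45294786-45295085 on the minus strand for Klkb1. Capitals mark matches to TTGCNNAA, a C/EBP motif, on either strand. F11 holds 1 match, at bases 234 to 241 of its window, and Klkb1 holds 1, at bases 74 to 81.
F11: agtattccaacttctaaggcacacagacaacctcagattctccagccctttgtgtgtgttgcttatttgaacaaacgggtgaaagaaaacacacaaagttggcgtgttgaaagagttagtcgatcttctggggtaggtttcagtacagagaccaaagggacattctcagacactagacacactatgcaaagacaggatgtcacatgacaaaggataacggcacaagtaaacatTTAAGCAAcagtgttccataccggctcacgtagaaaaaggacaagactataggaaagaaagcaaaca
Klkb1: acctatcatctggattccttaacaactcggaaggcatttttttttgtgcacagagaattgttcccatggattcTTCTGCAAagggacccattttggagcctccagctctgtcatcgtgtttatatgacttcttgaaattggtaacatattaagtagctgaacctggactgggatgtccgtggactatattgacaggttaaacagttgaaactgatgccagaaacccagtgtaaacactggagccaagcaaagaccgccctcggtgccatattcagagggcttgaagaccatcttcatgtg

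Kng1, which encodes kininogen, the precursor of bradykinin and cofactor of the contact system, fell. It lay at 2526, 1603, 2143 and 1982 CPM in CV, 3014, 1769, 2307 and 1752 in CM, 604, 651, 700.3 and 707 in EV and 940.2, 959.5, 933 and 876 in EM. EV libraries held 32.3% of the CV level (-1.63 ± 0.16 SE, adjusted p = 1.27e-06), and no EE library reached the lowest library without EE. The paralog Kng2 resembles Kng1 closely, so the division of reads between them is uncertain; it fell too (-1.37 ± 0.16 SE, adjusted p = 3.94e-06). For F12, the factor that autoactivates on surfaces, the values were 424, 409, 414 and 412 CPM in CV and 434, 394, 408 and 376 in CM. With EE they were 277, 246, 258 and 282 in EV and 242, 335, 335 and 324 in EM. No EE library reached a library without EE, and EM replicate 1 was below all EV libraries. The change of F12 was -0.64 ± 0.095 SE, adjusted p = 5.27e-05, the smallest fall among the called genes, and it was lost with library totals, as given above.

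All 5 genes of the clotting cascade proper fell with EE (24.9% of all genes tested fell), with log2 fold changes from -0.89 to -2.09. Factor VII, the short-lived protease that pairs with tissue factor, lay at 127, 109.8, 108 and 109 CPM in CV and 111, 64.7, 118 and 99.0045 in CM. F7 then lay at 25.7, 23.6, 26.7 and 30.8 CPM in EV and 34.7, 40.6, 41.0 and 42.0 in EM. EV libraries held 23.5% of the CV level (-2.09 ± 0.15 SE, adjusted p = 6.58e-08), and the lowest library without EE, CM replicate 2, was still above every EE library. F10 is the next gene along the chromosome from F7 and encodes the protease at which the intrinsic and extrinsic arms meet. Its values were 603, 462, 466 and 487 CPM in CV, 526, 442, 537 and 459.7 in CM, 132, 123, 133 and 133 in EV and 177, 197, 197 and 218 in EM. The 3 levels were separate: libraries without EE, EM libraries and EV libraries did not overlap for F10. The change was -1.95 ± 0.10 SE, adjusted p = 3.62e-09, the smallest adjusted p of the 32 genes.

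Prothrombin, the precursor of thrombin, was ordered alike. F2 lay at 1703, 1409, 1596 and 1610.1 CPM in CV and 1771, 1546, 1733 and 1498 in CM, against 567, 525, 591 and 586.6 in EV and 648, 781, 819 and 810.2 in EM. EV libraries held 35.9% of the CV level (-1.48 ± 0.094 SE, adjusted p = 1.89e-08). F5, the cofactor of factor Xa, went from 81.1 ± 10.1 CPM in the CV libraries to 27.5 ± 3.86 in those of EV (each ± SD of 4 libraries), a log2 fold change of -1.56 ± 0.15 SE. F9, the gene of factor IX, which is X-linked and lacking in hemophilia B, had the smallest fall of the 5, from 131 ± 6.75 to 70.9 ± 4.47 CPM (-0.89 ± 0.089 SE). For F5 and F9 alike the CV and EV libraries did not overlap. Of all genes tested, 22.7% were lower without overlap in EV against CV, and of the 32 genes 24 were; 24.6% were higher without overlap, and of the 32 F11 and Pros1 were.

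The plot of 6 genes by library shows F11 above, Klkb1 level and the others below their values without EE.

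**Figure D2:**
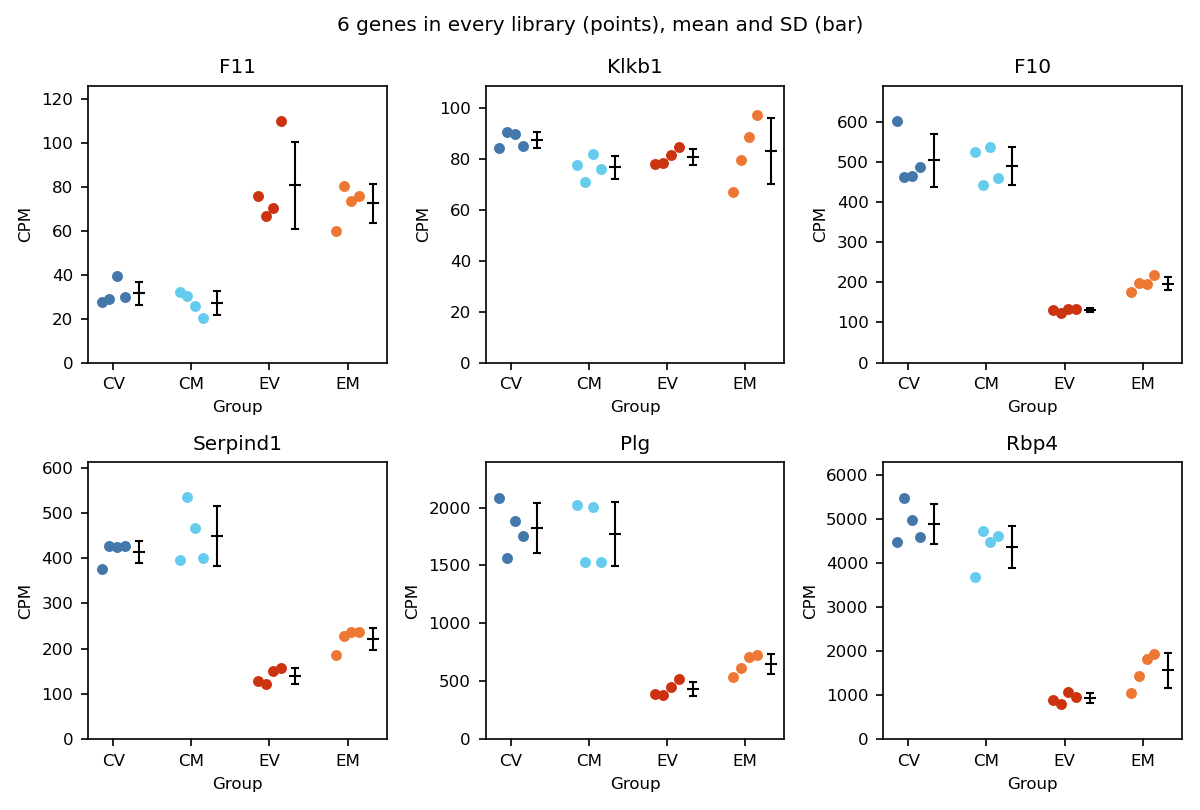
Points are the 4 libraries of each group (x axis) and the y axis is CPM from 0; the black bar beside them is the mean with its SD (n = 4). F11 is higher in all EE libraries, Klkb1 overlaps between CV and EV but not between CV and CM, and F10, Serpind1, Plg and Rbp4 are lower in all EE libraries, with EM above EV in every library for F10, Serpind1 and Plg.

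No fibrinogen chain was called with EE, although all 5 genes of the cascade were. Fga, Fgb and Fgg, which encode the α, β and γ chains of fibrinogen, did not pass the test with EE, and their levels varied most among libraries without EE. Fgb lay at 3619, 1485, 2216 and 1839.9 CPM in CV and 3512, 1947, 2754 and 1487 in CM. In the EE groups it lay at 1736, 1653, 1774 and 2194 in EV and 2182, 2013, 1652 and 1606 in EM. CV replicate 1, CM replicate 1 and CM replicate 3 were the highest, and the EE libraries lay inside the range of the others. Fgg gave 7024, 2848, 3987 and 3413 CPM in CV, 7194, 3885, 5940.2 and 2777 in CM, 3505, 3252, 3512 and 4358 in EV and 4414, 4222, 3266 and 3126 in EM, with the same 3 libraries highest. For Fga the values were 8609, 3343, 4926 and 3932 CPM in CV, 8059.7, 4438, 6869.7 and 3032 in CM, 4501, 3991, 4244 and 5366 in EV and 5073, 5106, 3905 and 3772 in EM, and CV and EV overlapped. The changes in EV against CV were -0.32 ± 0.27 SE, adjusted p = 0.352, for Fgb, -0.24 ± 0.29 SE for Fgg and -0.20 ± 0.30 SE for Fga. Without CV replicate 1, the highest CV library, they were -0.01 for Fgb, 0.10 for Fgg and 0.15 for Fga, so the differences from CV rested on that library. A shift within about 2 such SEs was not detectable in fibrinogen with these libraries. The coefficient of variation of Fga was 45.4% in CV and 40.7% in CM against 13.2% in EV and 16.2% in EM. F13b, the carrier subunit of the fibrin-crosslinking factor XIII, fell in contrast, from 134, 129.9, 172 and 150.1 CPM in the CV libraries to 55.0, 60.1, 62.1 and 63.8 in EV (-1.28 ± 0.11 SE, adjusted p = 3.07e-07). CM libraries held 141, 137, 165 and 155 CPM of F13b and EM libraries 59.4, 73.2, 80.4 and 79.9, so no EE library reached the range without EE.

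Fibrinogen is an acute phase protein, and the acute phase gene Saa1 was high in the same libraries. Saa1 lay at 8822, 273, 342 and 2063 CPM in CV and 11755, 169.8, 4220.2 and 699 in CM, then at 853, 748, 991 and 1013 in EV and 3371, 639, 469 and 770.1 in EM. CV replicate 1, CM replicate 1 and CM replicate 3 held the highest values of Saa1 as of Fgb. Serpina10 and Cpb2 were also highest in CV replicate 1 and CM replicate 1: Serpina10 reached 299 CPM there in CV, where the other 3 libraries held at most 153. Of 14 acute phase genes, a list added after values were seen, 4 rose in EV against CV (Saa3, Steap4, Il1r1 and Crp) and none fell. Of all genes tested 25.5% rose and 24.9% fell, so the count of rises was near the background. The part of the acute phase in these values was not tested, and Saa1 was looked up after the spread of fibrinogen was seen.

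**Figure D3:**
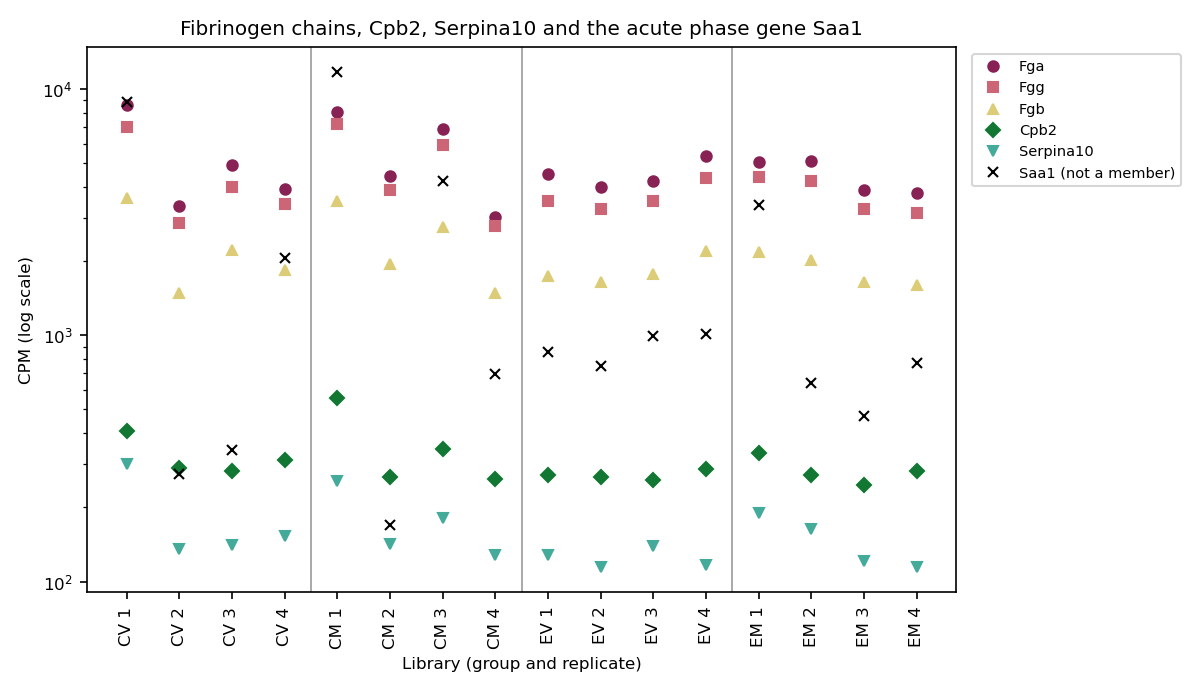
CPM on a log axis for Fga, Fgb, Fgg, Cpb2, Serpina10 and the acute phase gene Saa1, 1 column per library, with lines between groups. The fibrinogen chains are highest in CV 1, CM 1 and CM 3, where Saa1 is highest too, and are even across the EV libraries.

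The 3 fibrinogen genes lie next to each other, with no other protein-coding gene between them, and their promoters are shown because the genes moved in step across libraries. The windows (RefSeq, GRCm38.p6, same extent) are chr3:83025903-83026202 on the plus strand for Fga, chr3:83049814-83050113 on the minus strand for Fgb and chr3:83007474-83007773 on the plus strand for Fgg. Capitals mark matches on either strand to TTGCNNAA. Fga holds 1 match, at bases 116 to 123, Fgb holds 1, at bases 171 to 178, and Fgg holds none.
Fga: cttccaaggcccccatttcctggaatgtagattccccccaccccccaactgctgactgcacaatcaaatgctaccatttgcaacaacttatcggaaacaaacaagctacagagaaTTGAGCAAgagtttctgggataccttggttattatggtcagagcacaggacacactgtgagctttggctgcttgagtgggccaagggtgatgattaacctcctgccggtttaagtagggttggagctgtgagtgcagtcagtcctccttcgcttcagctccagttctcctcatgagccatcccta
Fgb: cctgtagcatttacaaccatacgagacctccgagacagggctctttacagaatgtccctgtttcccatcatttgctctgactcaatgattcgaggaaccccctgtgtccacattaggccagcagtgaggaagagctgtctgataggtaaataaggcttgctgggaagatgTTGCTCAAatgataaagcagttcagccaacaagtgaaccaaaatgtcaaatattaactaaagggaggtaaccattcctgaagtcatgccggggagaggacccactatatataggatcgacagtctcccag
Fgg: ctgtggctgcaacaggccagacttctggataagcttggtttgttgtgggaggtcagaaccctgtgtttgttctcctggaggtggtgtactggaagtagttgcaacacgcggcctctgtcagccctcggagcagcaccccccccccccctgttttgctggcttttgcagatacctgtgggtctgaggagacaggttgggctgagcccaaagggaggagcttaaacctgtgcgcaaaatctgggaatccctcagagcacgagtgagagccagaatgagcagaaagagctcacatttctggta

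Across the 27 promoter windows matched to 26 of the 32 genes, 11 held TTGCNNAA (40.7%). Among 32851 windows of all genes in the same table the share was 10.8%. No window of the 27 held GGTCANNNTGACC, an estrogen response element, AGGTCANTGACCT, an FXR element, or the HNF4 core CAAAGTCCA, which 0.07%, 0.00913% and 0.475% of all windows hold. The matches to TTGCNNAA lay in genes that fell with EE (Serpinc1, Alb, Ahsg, Hrg, Rbp4 and F9). They also lay in genes that did not fall (F11, Klkb1, Fga, Fgb and Cpb2). These are matches of letters in a short window and were not tested.

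Of the 6 anticoagulant genes 4 fell and none rose with TMM factors, while 24.9% of all genes tested fell and 25.5% rose. With library totals Pros1 was called higher (0.78), as were 54.6% of all genes tested. Antithrombin, the main inhibitor of thrombin and factor Xa, lay at 3601, 3940.1, 3751 and 3767 CPM in CV and 3690.2, 3820.04, 3932 and 3788 in CM. Serpinc1 lay at 1084, 1037, 1119 and 1061 CPM in EV and 1179, 1502, 1665 and 1717 in EM. No EE library came near the 8 libraries without EE, and EV libraries held 28.6% of the CV level (-1.81 ± 0.10 SE, adjusted p = 5.73e-09). Proc, the vitamin K-dependent protease that inactivates factors Va and VIIIa, lay at 547, 547, 532 and 511 CPM in CV and 506, 482, 539 and 497 in CM. It lay at 202, 193, 224 and 225 in EV and 236, 283, 301 and 306 in EM, again with no overlap between EV and EM or between either and the libraries without EE. EV libraries held 39.5% of the CV level (-1.34 ± 0.086 SE, adjusted p = 2.05e-08).

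Heparin cofactor II inhibits thrombin in tissue. Its gene Serpind1 lay at 377, 427, 425 and 428 CPM in CV, 396, 535, 468 and 400.2 in CM, 128, 121, 149.7 and 158 in EV and 186, 227, 238 and 237 in EM. The fall was -1.57 ± 0.12 SE, adjusted p = 8.67e-08. Apoh, which encodes β2-glycoprotein I, a phospholipid-binding protein of plasma, lay at 3077, 3127, 3118 and 2766 CPM in CV and 2589, 2842, 3043 and 2711 in CM. With EE Apoh lay at 773, 669.9, 800.03 and 882 in EV and 889.6, 1097, 1315 and 1355 in EM, a fall to 25.8% of CV in EV (-1.95 ± 0.13 SE, adjusted p = 2.15e-08). For both genes all EM libraries lay between the EV libraries and those without EE. Protein S, the cofactor of protein C, is also made outside hepatocytes. Pros1 went from 30.2 ± 6.49 CPM in the CV libraries to 37.0 ± 2.21 in EV (SD, n = 4), a difference that missed the threshold (0.29 ± 0.14 SE, adjusted p = 0.0909), although every EV library was above every CV library, the closest pair of them less than 1 CPM apart. Serpina10, the protein Z-dependent inhibitor of factor Xa, did not pass either (-0.55 ± 0.27 SE, adjusted p = 0.101), and without CV replicate 1 its change was -0.20.

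Fibrinolysis genes fell in 4 of 5 cases (24.9% of all genes tested fell). Plasminogen, the zymogen of the enzyme that cuts fibrin, lay at 2086, 1565, 1883 and 1755 CPM in CV and 2023, 1532, 2004 and 1532 in CM. Plg lay at 393, 383, 447 and 516 CPM in EV and 539.99, 611, 705 and 728 in EM. EV libraries held 23.9% of the CV level (-2.07 ± 0.14 SE, adjusted p = 4e-08), and EM lay above EV in every library. Its plasma inhibitor α2-antiplasmin fell as well. Serpinf2 lay at 926, 672, 908 and 755 CPM in CV, 871, 775, 1012 and 737 in CM, 387, 369, 400.3 and 435 in EV and 431, 445, 479 and 459 in EM (-1.04 ± 0.12 SE, adjusted p = 3.42e-06). Hrg, a histidine-rich glycoprotein that binds plasminogen and heparin, lay at 1215, 993, 1167 and 1076 CPM in CV, 1423, 839, 1242 and 901 in CM, 379.8, 388, 400.1 and 473 in EV and 476, 572.1, 607 and 598 in EM. It fell to 36.9% of the CV level (-1.44 ± 0.15 SE, adjusted p = 2.03e-06), without overlap. Vtn, the adhesive protein vitronectin that stabilises the plasminogen activator inhibitor PAI-1, went from 2557 ± 532 to 955 ± 114 CPM (-1.42 ± 0.17 SE). Cpb2, the fibrinolysis inhibitor TAFI, went from 323 ± 57.8 to 271 ± 11.9 CPM, which missed the threshold (-0.25 ± 0.20 SE, adjusted p = 0.311).

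Both remaining serpins fell (24.9% of all genes tested fell). Serpinf1, which encodes the antiangiogenic factor PEDF, lay at 733, 846, 935 and 812 CPM in CV and 853, 709.5, 861 and 834 in CM, and at 265, 276, 312 and 281 in EV and 301, 313, 386 and 357 in EM (-1.55 ± 0.10 SE, adjusted p = 2.67e-08). Serping1, the C1 inhibitor of complement and contact proteases, lay at 923, 638, 762 and 838 CPM in CV and 1135, 579, 946 and 599 in CM. The EV libraries held 298, 322, 349.6 and 398 CPM of Serping1 and the EM libraries 386, 403, 389 and 413 (-1.21 ± 0.19 SE, adjusted p = 7.99e-05). Neither gene overlapped between EV and CV, and the CM libraries of Serping1 spread the most.

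All 6 carriers fell (24.9% of all genes tested fell), with log2 fold changes from -1.08 to -2.40. Retinol-binding protein, which carries vitamin A from the liver, had the largest fall of the 32 genes. Rbp4 lay at 4465, 5477, 4973 and 4599 CPM in CV, 3673, 4716, 4467 and 4602 in CM, 885, 803, 1059.9 and 962 in EV and 1054, 1443, 1823 and 1923 in EM. EV libraries held 19.01% of the CV level (-2.40 ± 0.17 SE, adjusted p = 4.24e-08). Transthyretin, the thyroxine carrier to which retinol-binding protein is bound in plasma, fell too. Ttr lay at 4920.02, 7191, 6884 and 5050.3 CPM in CV, 4146, 6295, 5237 and 5671 in CM, 1764, 1743, 2009.9 and 2047 in EV and 2373, 2269, 2754 and 2687 in EM (-1.67 ± 0.15 SE, adjusted p = 3.92e-07). Ahsg, the mineral-binding fetuin-A, lay at 10380.1, 10642, 12085 and 9639.7 CPM in CV and 10139, 10221, 9199 and 8065 in CM, against 3326, 3459.7, 4491 and 4334 in EV and 5027, 5414, 6073 and 5050.4 in EM (-1.45 ± 0.12 SE, adjusted p = 1.97e-07). In none of these 3 genes did an EE library reach a library without EE.

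Albumin, the main carrier of plasma, lay at 53603, 63768, 77124 and 59152 CPM in CV and 56145, 83475, 57809 and 61704 in CM. Alb was at 25497, 22530.3, 28959 and 27951 CPM in EV and 24223, 36161, 40218 and 36346 in EM, so that EV libraries held 41.4% of the CV level (-1.27 ± 0.17 SE, adjusted p = 1.8e-05). EM replicate 1 was within the EV range for Alb and the other 3 EM libraries were above it. Gc, the vitamin D-binding protein of the albumin family, went from 6273 ± 493 to 2962 ± 254 CPM (-1.08 ± 0.11 SE). Ambp, the precursor of α1-microglobulin and bikunin, went from 3757 ± 609.9 to 1752 ± 116 CPM (-1.10 ± 0.14 SE). Both were called, and neither overlapped between CV and EV.

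Some of these genes lie side by side. With TMM factors, neighbours in EV against CV changed alike in some places and not in others. Neighbours with no protein-coding gene between them were F7 and F10 (-2.09 and -1.95), Serpinf1 and Serpinf2 (-1.55 and -1.04), the 3 fibrinogen genes (-0.24, -0.20 and -0.32 in gene order), and F11 and Klkb1 (1.36 and -0.11). Ahsg, Hrg and Kng1 follow each other with 1 gene between each pair and stood at -1.45, -1.44 and -1.63. With library totals F11 (1.84) and Klkb1 (0.37) were both called higher in EV against CV, so their contrast depended on the scaling. Gene order is that of RefSeq on GRCm38.p6.

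In mice given MI763F, EE lowered the same 24 genes and raised F11, with a median over the 32 of -0.94 in EM against CM. The falls ran from -0.38 for F12 to -1.48 for Rbp4, and 15 of the 32 were lower by at least 1 log2 unit. The smallest of those 15, Vtn (-1.01), had 6.08% of all genes tested below it. Plg (-1.46 ± 0.14 SE), Serpinc1 (-1.33 ± 0.098 SE), F10 (-1.32 ± 0.099 SE) and F7 (-1.31 ± 0.15 SE) came next after Rbp4. Fibrinogen did not pass here either, at -0.33, -0.38 and -0.40 for Fga, Fgb and Fgg. With library totals F12 was again lost (-0.01) and Klkb1 (0.49) and Pros1 (0.56) were called higher. Against CV, the mice given both agents kept lower levels of the same 24 genes and a higher one of F11 (background 20% lower and 20.7% higher). Rbp4 stood at 31.99% of CV, F7 at 34.8%, Plg at 35.5% and Alb at 54.0%, and F11 at 229.9%.

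**Figure D4:**
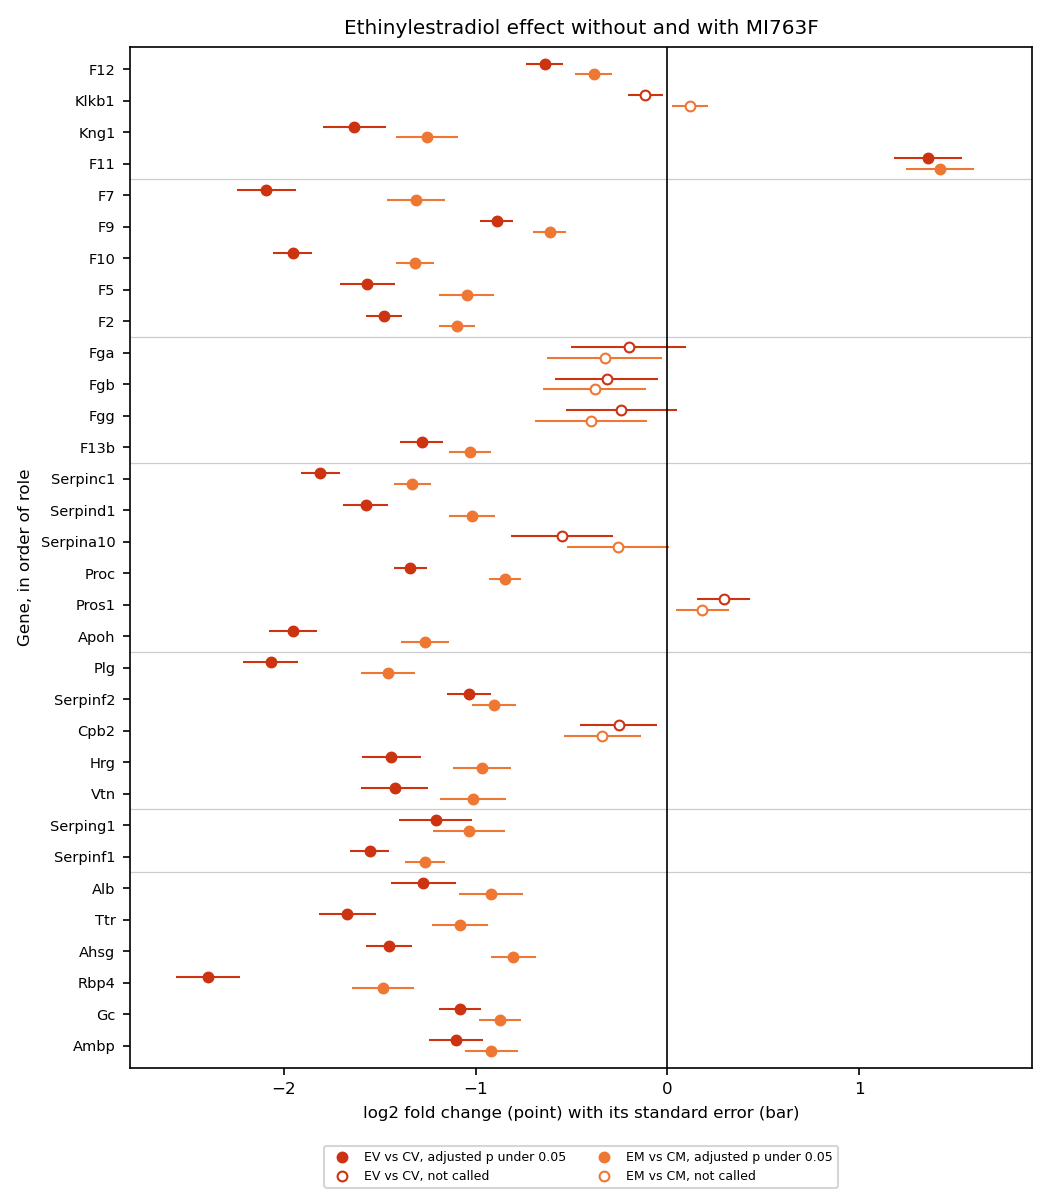
Log2 fold changes (x axis) of the 32 genes with their SE, for EV against CV (red) and EM against CM (orange); filled points have an adjusted p under 0.05. In both comparisons 24 genes lie to the left of 0 as filled points and F11 lies to the right, and the 3 fibrinogen chains and Serpina10 have wide bars.

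Without EE, no change of these genes with MI763F passed the test. None of the 32 was called in CM against CV by edgeR's quasi-likelihood test, none had an unadjusted p under 0.05, and none was called by DESeq2 or limma. Of all genes tested 0.0929% were called. The 32 changes lay between -0.22 (F11) and 0.20 (Fgg), with SEs from 0.085 to 0.30. Klkb1 was the sole gene whose CM and CV libraries did not overlap, at -0.19 (background 1.9% lower without overlap).

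With EE present, the ligand raised 7 of the 32 genes and lowered none, against 1.51% of all genes tested that rose and 0.178% that fell. They were F10, F2, Serpinc1, Serpind1, Proc, Apoh and Rbp4, all of which EE had lowered. Serpind1 had 33.6% of its CV level in EV and 53.6% in EM (0.67 ± 0.12 SE, adjusted p = 0.00943, in EM against EV). F10 had 25.8% and 39.1% (0.60 ± 0.098 SE, adjusted p = 0.00802). Rbp4, with 19.01% and 31.99%, had the largest change (0.75 ± 0.16 SE, adjusted p = 0.0306), and its EM replicate 1 fell inside the EV range, since the lowest EM value was 1054 CPM and the highest EV value 1059.9. The changes were 0.58 ± 0.12 SE, adjusted p = 0.0306, for Apoh and 0.50 ± 0.097 SE, adjusted p = 0.0208, for Serpinc1. F2 (0.43 ± 0.093 SE, adjusted p = 0.0333) and Proc (0.42 ± 0.085 SE, adjusted p = 0.026) had the smallest of the 7. Outside the 7, Plg lay just above the threshold (0.57 ± 0.14 SE, adjusted p = 0.0501), as did Ahsg (0.47 ± 0.12 SE, adjusted p = 0.0635) and F7 (0.57 ± 0.15 SE, adjusted p = 0.0765). Of the 32, 29 were higher in EM than in EV (6397 of the 12918 genes tested), 20 had an unadjusted p under 0.05 (1642 of 12918), and 13 were higher without overlap (background 6.56%).

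Hepatocyte markers summed to 3735 to 4202 CPM in EV and 4008 to 4809 in EM, macrophage markers to 1371 to 1687 and 1186 to 1672, and their part in these rises was not tested. The calls depended on single libraries, while the median change over the 32 moved little. Without EV replicate 1, and likewise without EV replicate 2, none of the 32 was called by edgeR, with medians of 0.29 and 0.28 against 0.31 with all libraries, and 4 and 3 were called without EV replicates 3 and 4. The counts were 2 each without EM replicates 2, 3 and 4 and 13 without EM replicate 1, whose share of counts in the 32 genes was the lowest of EM. The calls over all genes moved too. Without EV replicates 1, 2, 3 and 4, in that order, 0.293%, 0.278%, 0.85% and 0.664% of all genes were called higher. Without EM replicates 1, 2, 3 and 4 the shares were 2.9%, 0.656%, 0.494% and 0.471%. F10 (adjusted p = 1.02e-06 to 0.0553 over its alternatives) and Serpind1 (6.49e-06 to 0.0566) were the 2 called with library totals and in every setting other than those that left out EV replicate 1 or 2. DESeq2 called 12 higher (3.63% of all genes). The interaction, which asks whether the ligand acts differently with EE than without it, called none of the 32 by edgeR's quasi-likelihood test (0.132% of all genes). In that test 14 of the 32 had an unadjusted p under 0.05 (1759 of 12918 genes tested), and DESeq2 called 8 (3.48% of all genes). The largest interaction terms were those of Rbp4 (0.91 ± 0.22 SE, adjusted p = 0.0893) and F7 (0.78 ± 0.21 SE, adjusted p = 0.116), and F10 had the smallest adjusted p (0.64 ± 0.14 SE, adjusted p = 0.0686).

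**Figure D5:**
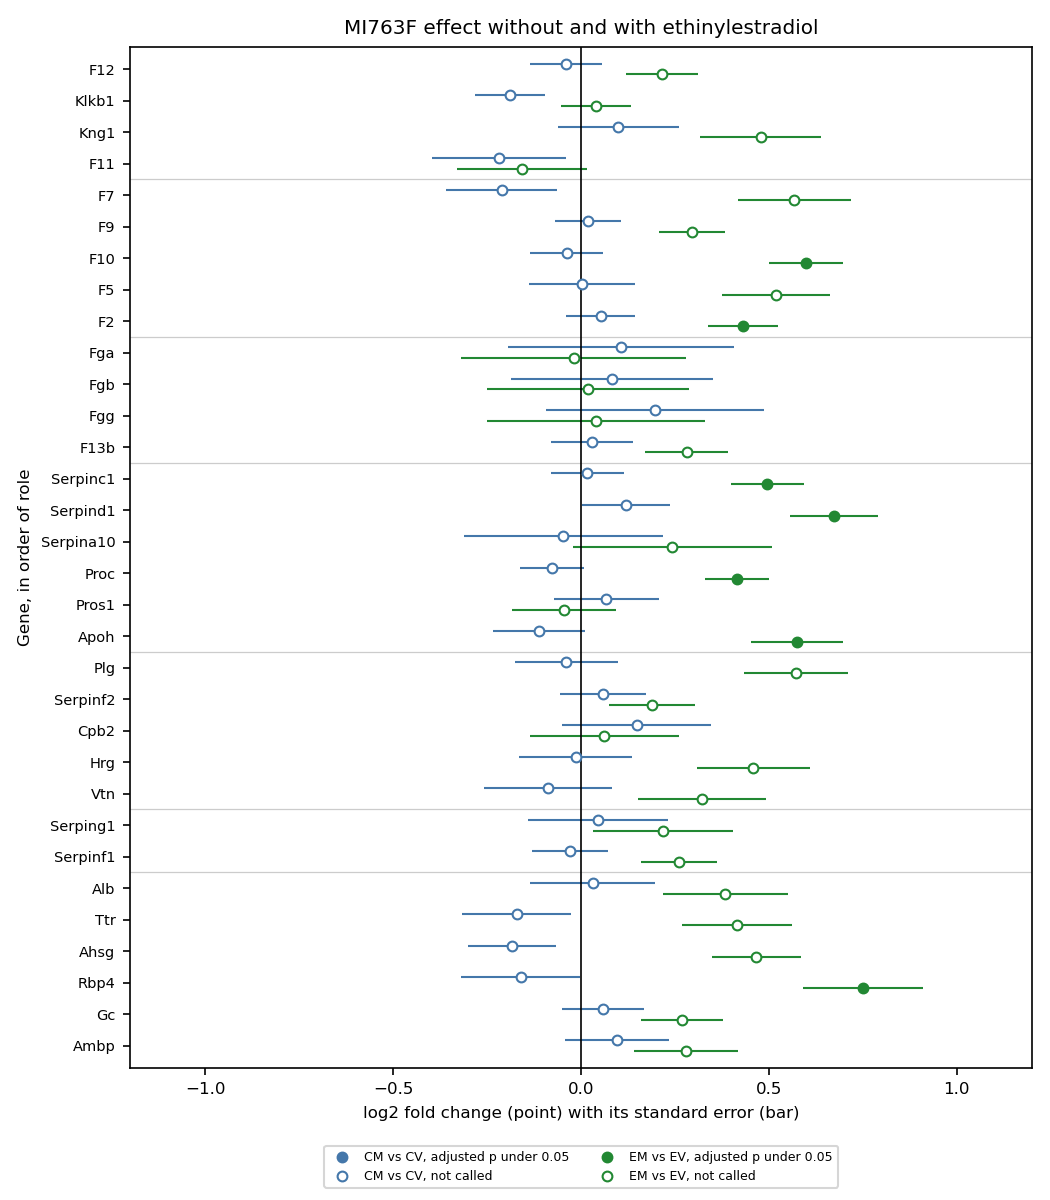
Log2 fold changes (x axis) of the 32 genes with their SE, for CM against CV (blue) and EM against EV (green); filled points have an adjusted p under 0.05. All blue points are open and lie within 0.22 of 0, while 7 green points are filled and lie between 0.42 and 0.75.

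Among further genes of clotting and fibrinolysis, 29 tested of 36 listed, 11 rose and 9 fell in EV against CV, with a median of 0.18. With library totals 16 rose and 8 fell. For these and the lists that follow, the shares over all genes tested were 25.5% higher and 24.9% lower, and 54.6% higher and 10.3% lower with library totals. Those that fell were the growth factor activator Hgfac (-2.62 ± 0.21 SE, adjusted p = 1.4e-07), the hyaluronan-binding protease Habp2 (-1.23 ± 0.098 SE, adjusted p = 1.31e-07), protein Z (Proz, -0.88), Mst1 (-0.75), Kng2, Serpine2, Cpn1, Cpn2 and Hpn. Tgm2, a tissue transglutaminase related to factor XIII, rose from 51.8, 54.7, 53.5 and 67.6 CPM in CV to 1786, 1796, 1332 and 1348 in EV (4.78 ± 0.25 SE, adjusted p = 3.67e-09). In EM it lay at 1134, 978, 599 and 589.99 (-0.92 ± 0.21 SE, adjusted p = 0.0432, in EM against EV). The others that rose were urokinase Plau (2.03), its receptor Plaur (2.55), tissue factor F3 (1.65), its inhibitor Tfpi (1.08), thrombomodulin Thbd (1.13), the thrombin receptor F2r (1.28), Fgl2 (1.27), Anxa2 (1.57), S100a10 (1.17) and Serpina5. Plau, Plaur and F3 averaged under 10 CPM in each group, so their folds rest on few counts. Serpina5, the protein C inhibitor, was at 0, 0.153, 0 and 0 CPM in CV and at 3.99, 3.06, 3.56 and 2.31 in EV. In EM against EV, of the 29, Habp2 rose (0.40 ± 0.097 SE, adjusted p = 0.0495) and Tgm2 fell. The first was called in 5 of 17 alternatives and the second in 9 of 17, and both were lost without any 1 of the 4 EV libraries.

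Of 6 vitamin K cycle genes, on which the activity of F2, F7, F9, F10, Proc and Pros1 depends, 1 was called. Vkorc1, the reductase that warfarin inhibits, had 307 ± 19.1 CPM in the CV libraries and 144 ± 13.7 in EV (SD, n = 4), a fall (-1.09 ± 0.091 SE, adjusted p = 2.13e-07). Ggcx, the carboxylase itself, was at 0.06 and did not pass. With library totals Vkorc1 fell and 4 others, Ggcx among them, were called higher.

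Other plasma carriers fell in 10 of 18 cases and rose in 2, and with library totals in 7 and 4. Serpina6, the corticosteroid-binding globulin, fell from 322, 383, 468 and 437 CPM in the CV libraries to 17.6, 13.96, 23.2 and 17.1 in EV (-4.49 ± 0.25 SE, adjusted p = 6.08e-09), a larger change than that of any of the 32 genes. It lay at 44.8, 36.3, 68.1 and 37.3 in EM (1.38 ± 0.22 SE, adjusted p = 0.00718, in EM against EV), a rise that was called in all 17 alternatives. Azgp1, a lipid-mobilising glycoprotein, fell (-1.28) and rose in EM against EV (0.58 ± 0.092 SE, adjusted p = 0.00671), a call lost without EV replicate 2. Fetub (-2.13) and the selenium carrier Selenop (-1.27) fell, while the protease inhibitor Mug1 rose (1.46). Afp, the fetal counterpart of albumin, was at 0.356, 0.0764, 0.0687 and 0.0589 CPM in CV and 4.87, 2.67, 4.95 and 2.31 in EV and was called higher.

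Of 15 transcription factors of hepatocytes tested, 8 fell and none rose in EV against CV. With library totals 4 fell and 2 rose. Onecut1 had the largest fall (-2.63 ± 0.63 SE, adjusted p = 0.003), and its SE was the widest. Cebpa came next (-1.63 ± 0.19 SE, adjusted p = 3.98e-06), and Foxa3 (-1.21) and Nr5a2 (-1.04) fell under both scalings. Hnf4a (-0.48) and the bile acid receptor Nr1h4 (-0.74) fell with TMM factors and were not called with library totals.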

How the data were processed

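Poly(A) RNA of mouse liver was sequenced in 16 libraries, 4 in each of 4 groups. The authors deposited 1 table of estimated counts per gene, and per the submitters' processing notes STAR, Salmon and the build GRCm39 were used. Versions, settings and the annotation behind them were not found in the labels. The deposited estimated counts were already whole numbers, so rounding altered none; that they are estimates was read from the tools named and the values. Library totals were 14115384 to 21473227, and this depth bounds counting error only.

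Genes were filtered with filterByExpr (12918 of 13006 kept), scaled by TMM, and modelled in edgeR 4.0.16 under R 4.3.3 with 1 quasi-likelihood fit of all 16 libraries with a term per group and 12 residual degrees of freedom. Contrasts were EV vs CV, CM vs CV, EM vs EV, EM vs CM, EM vs CV and the interaction. P-values were adjusted by the Benjamini-Hochberg method over all genes tested. Symbols for 12692 gene identifiers came from the GENCODE M21 name table, and promoters from RefSeq on GRCm38.p6. The scripts were tested on simulated counts with known changes in genes drawn from all those tested. In CM vs CV 25.4% of 1.5-fold, 63.2% of 2-fold and 88.2% of 4-fold changes were recovered. In EM vs EV the shares were 35.2%, 66.2% and 85.2%, in that order.

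The 32 genes and the other lists were chosen with earlier results of these data known. Named in full were, in each role, up to 3 genes with the smallest p in EV vs CV and every gene called in CM vs CV, EM vs EV or the interaction. Klkb1, Alb and Fga, and the acute phase list, were added after values were seen. Of the other lists, up to 6 genes with the smallest p in EV vs CV and up to 2 in EM vs EV were eligible to be named; Onecut1, Ggcx, the markers and further genes of clotting called in EV vs CV were named outside that rule, after their values were seen. Alternatives were library totals, RLE factors, scaling without the 32 genes, no filter, a minimum of 1 CPM in 8 libraries, DESeq2 1.42.0, limma 3.58.1, the replicate number as a block, a fit of the compared groups alone, and leaving out each library. Library numbers run in blocks by group, so any order of handling cannot be told apart from the groups. A further dose of MI763F named in the labels was not analysed here. Some genes of the other lists are not reported here.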

Additional observations from a re-analysis of the deposited data

Results flagged for a closer look

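In 8 of 128 sets of 4 libraries (a gene in a group), 1 library stood far from the other 3; chance flags about 1 set in 20. CV replicate 1 was the library in 4 of them. It held 127 CPM of F7, where the others held 108 to 109.8, and 377 CPM of Serpind1, below 425 to 428. It also held 299 CPM of Serpina10 against 136 to 153, and 3346 CPM of Vtn against 2217 to 2404. CV replicate 4 held 2766 CPM of Apoh, below the 3077 to 3127 of the other CV libraries. EV replicate 2 held 123 CPM of F10, where the others held 132 to 133. EM replicate 1 held 242 CPM of F12, below the 324 to 335 of the other EM libraries, and EM replicate 4 held 1266 CPM of Vtn against 1165 to 1173.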

How the results depend on the processing

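A call was lost, gained or reversed in 4 of 576 alternatives to the genes' values in EV vs CV and in 3 of 544 in EM vs CM. The same held for 3 of 576 in EM vs CV and 0 of 576 in CM vs CV. In EM vs EV 64 of 544 changed, and in the interaction 13 of 800. Changes of sign in genes called in neither fit were not counted. Fga in EV vs CV, at -0.20 and at 0.28 with library totals, is an example. With library totals 3 of the 32 genes were higher in each of EV vs CV, EM vs CM and EM vs CV. The shares of all genes called higher were then 54.6%, 45.6% and 46.3%, in that order. In EV vs CV 84.1% of all calls were upward instead of 50.5%. Klkb1 reversed, to 0.37 (EV vs CV) and 0.30 (EM vs CV). Library totals keep a shift over all genes that TMM factors remove, and the cause of that shift was not tested.

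Over all genes, CM vs CV called 12, and 221 with DESeq2, 2 with the compared groups alone, 3 without CV replicates 1 and 2 (chosen after seeing the data) and 4 to 39 leaving out 1 library. EM vs EV called 218, and 127 with library totals, 559 with DESeq2 and 36 to 445 leaving out 1 library; of the 32 genes it called 7, and 2, 12, 4 (compared groups alone) and 0 to 13. The interaction called 17, and 26 with library totals, 450 with DESeq2, 30 with limma, 5 without CV replicates 1 and 2 and 10 to 208 leaving out 1 library; of the 32 genes it called 0, 8 with DESeq2 and 0 to 5. The cause was not tested.

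The labels do not say that a replicate number is shared by groups. Of 24 correlations of same-numbered libraries 0 exceeded 0.1 (-0.052 to 0.096). Differently numbered libraries were not compared, so these values do not settle whether libraries were paired. With the replicate block CM vs CV called 6 genes and the interaction 79, EM vs EV called 8 of the 32, and Serpina10 was also called lower in EV vs CV.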
